A study of Mus musculus with 30 samples.

Results

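Inguinal white fat of mice kept for 24 h at 6 °C was set against the brown fat of mice that had not been put in the cold, gene by gene, in 10 of the 30 bulk RNA libraries of the series. The 10 were picked out by their labels: 5 libraries of inguinal white adipose tissue (iWAT) labelled 6 °C for 24 h, and 5 of brown adipose tissue (BAT) labelled 22 °C. The comparison itself was chosen with earlier results of these data known. Both groups came from male C57BL/6J mice aged 7 to 8 weeks, with no transgene, drug or genetic change named, and 5 further libraries of iWAT at 22 °C are given beside them as the starting point of the white fat. Mice shared cages of 5 in a room stated to be at 24 ± 2 °C, while the labels of the unexposed groups say 22 °C. PolyA RNA of the bulk tissue was sequenced, and nothing says that the 5 libraries of a group are separate animals, so p-values measure the spread between these samples. The labels' word for BAT is only the tissue, and a brown fat pad at 22 °C is not a silent one: mice at that temperature are below thermoneutrality.

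Brown adipocytes make heat by burning fatty acids and glucose in mitochondria whose inner membrane carries uncoupling protein 1 (UCP1), a proton channel that lets respiration run without making ATP. Noradrenaline from sympathetic nerves acts on β-adrenergic receptors, raises cAMP, starts lipolysis and induces Ucp1 through CREB, ATF2 and the coactivator PGC-1α. Cold also brings out UCP1-positive beige adipocytes among the white adipocytes of the inguinal pad. Beige and interscapular brown adipocytes arise from different precursors, and the positional transcription factors of the 2 depots differ.

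The promoters of 5 genes that carry the comparison are shown for orientation: Ucp1 and Ppargc1a (PGC-1α), both induced in the cold white fat, and Zic1, Hoxa5 and Lep, whose levels differed between the depots. Each runs from 250 bases before the RefSeq start to 50 after it, in GRCm38.p6, read 5′ to 3′ on the gene's own strand. Capitals mark the letters TGACG, the half-site of the cAMP response element, and AGGTCA, the half-site bound by nuclear receptors such as PPARs and thyroid hormone receptors, on either strand.
Ucp1, chr8:83290098-83290397, plus strand: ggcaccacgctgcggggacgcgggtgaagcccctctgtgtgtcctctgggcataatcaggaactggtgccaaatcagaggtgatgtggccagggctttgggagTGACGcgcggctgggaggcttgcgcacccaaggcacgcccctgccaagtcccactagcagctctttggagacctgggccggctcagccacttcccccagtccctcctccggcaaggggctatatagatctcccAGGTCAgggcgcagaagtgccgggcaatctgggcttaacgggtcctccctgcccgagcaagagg
Ppargc1a, chr5:51567676-51567975, minus strand: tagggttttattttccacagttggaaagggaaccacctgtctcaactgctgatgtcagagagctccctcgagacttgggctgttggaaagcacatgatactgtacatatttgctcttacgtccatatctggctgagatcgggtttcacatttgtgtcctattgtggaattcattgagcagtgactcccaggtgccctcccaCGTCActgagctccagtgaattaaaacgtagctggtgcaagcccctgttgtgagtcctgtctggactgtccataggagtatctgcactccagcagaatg
Zic1, chr9:91365719-91366018, minus strand: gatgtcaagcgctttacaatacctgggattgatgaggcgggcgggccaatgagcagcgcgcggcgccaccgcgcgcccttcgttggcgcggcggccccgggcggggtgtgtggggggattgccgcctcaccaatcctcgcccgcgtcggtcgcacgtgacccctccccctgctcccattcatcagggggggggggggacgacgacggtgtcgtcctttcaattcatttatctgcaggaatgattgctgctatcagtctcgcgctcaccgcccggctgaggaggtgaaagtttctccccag
Hoxa5, chr6:52204538-52204837, minus strand: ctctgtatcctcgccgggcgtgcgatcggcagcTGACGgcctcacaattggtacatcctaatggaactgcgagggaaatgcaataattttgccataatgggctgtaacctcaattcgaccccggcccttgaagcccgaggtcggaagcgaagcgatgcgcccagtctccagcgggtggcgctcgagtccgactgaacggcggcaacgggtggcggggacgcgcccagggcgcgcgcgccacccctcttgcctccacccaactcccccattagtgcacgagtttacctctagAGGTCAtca
Lep, chr6:29059971-29060270, plus strand: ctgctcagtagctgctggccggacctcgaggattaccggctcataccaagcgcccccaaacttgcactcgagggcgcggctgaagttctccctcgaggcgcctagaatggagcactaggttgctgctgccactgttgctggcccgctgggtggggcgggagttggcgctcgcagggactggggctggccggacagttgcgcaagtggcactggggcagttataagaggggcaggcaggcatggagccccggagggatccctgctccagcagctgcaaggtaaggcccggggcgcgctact
Ucp1 and Hoxa5 held 1 match of each motif, Ppargc1a 1 of the first, which starts at -49, and Zic1 and Lep none. Of all 32851 promoter windows of this length, 20.8% held TGACG and 16.3% held AGGTCA. A match of 5 or 6 letters is common and shows no binding.

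After a day of cold the white fat had moved toward brown fat and was still far from it. Library totals were 30.7 to 38.3 M assigned counts in iWAT after 24 h, 25.3 to 36.7 M in BAT and 27.7 to 39.8 M in iWAT at 22 °C (M, 1e+06). Levels are given as CPM, counts scaled to a library of 1e+06 with TMM factors, and differences as log2 of iWAT after 24 h at 6 °C over BAT at 22 °C, so that a negative value means lower in the white fat. Of 14089 genes tested with edgeR, 4055 (28.8%) were higher and 4009 (28.5%) lower in the cold-exposed white fat at an adjusted p under 0.05. A difference of 1 log2 unit or more (2-fold) was called for 1904 genes higher and 1293 lower. By the 95% interval of the difference, 8171 genes (58%) lay wholly within 1 log2 unit of BAT. The same fit gave 4857 genes (34.5%) higher and 4570 (32.4%) lower in iWAT than in BAT at 22 °C, and the median size of the difference over all genes was 0.613 log2 there and 0.462 after cold. Within iWAT, 2253 genes (16%) rose and 1482 (10.5%) fell over the 24 h. These comparisons share libraries, so they are read side by side only.

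The share of genes that are higher depends on the scale. Mitochondrially encoded RNA took 26% ± 0.432 (SD, n = 5) of all counts in BAT and 13.5% ± 0.98 (n = 5) in iWAT after 24 h, with 12.4% ± 1.81 (n = 5) in iWAT at 22 °C. The difference of -12.5 percentage points between the first 2 groups had a 2-sided exact permutation p of 0.00794, the smallest that 252 splits allow. On the authors' FPKM, a unit scaled by gene length and library total, 7902 genes were higher and 1814 lower (81.3% of the called genes higher, against 50.3% here), and the median over all genes was 0.232 instead of 0.019. With upper-quartile factors it was 5100 and 3238 (61.2%), with a median of 0.136. With TMM factors and the mitochondrially encoded genes left out, 4218 were higher and 3821 lower (52.5%), with a median of 0.042. The part of mitochondrial RNA in the shift on FPKM was not tested. Of the genes described below as within 1 log2 unit, Scd1, Srebf1, Acsl1, Tomm20, Atf4, Ddit3, Hoxb3, Hoxb4, Col4a2 and Tbx15 passed as higher on log2(FPKM + 1). Their differences were 0.348 to 0.543, or 0.578 for Tbx15 and 0.601 for Acsl1. Directions below are relative to the TMM median unless another scale is named.

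Distances between single libraries put numbers on the gap. The root mean square difference of log2 CPM over the tested genes had a median of 1.28 (range 1.15 to 1.43) over the 25 pairs of iWAT after 24 h with BAT. For iWAT at 22 °C it was 1.42 (1.27 to 1.65), and for iWAT after 6 h of cold 1.35 (1.11 to 1.54). Pairs within the cold white fat had a median of 0.558, and pairs within BAT 0.605. No pair across these 2 groups was as close as the farthest pair within either of them, at 0.598 in the cold white fat and 0.841 in BAT. The mean distance to BAT of the 5 cold-exposed libraries ran from 1.24 to 1.32. Among the BAT libraries replicate 2 was nearest, at 1.2, and replicate 5 farthest, at 1.4. They held the least and the most skeletal muscle marker RNA of the BAT libraries, at 383 and 10900 CPM. In iWAT at 22 °C, replicate 2 held the most, at 4310 CPM, and had the lowest mean distance to BAT of its group, 1.36. The part of muscle RNA in these distances was not tested.

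**Figure D1:**
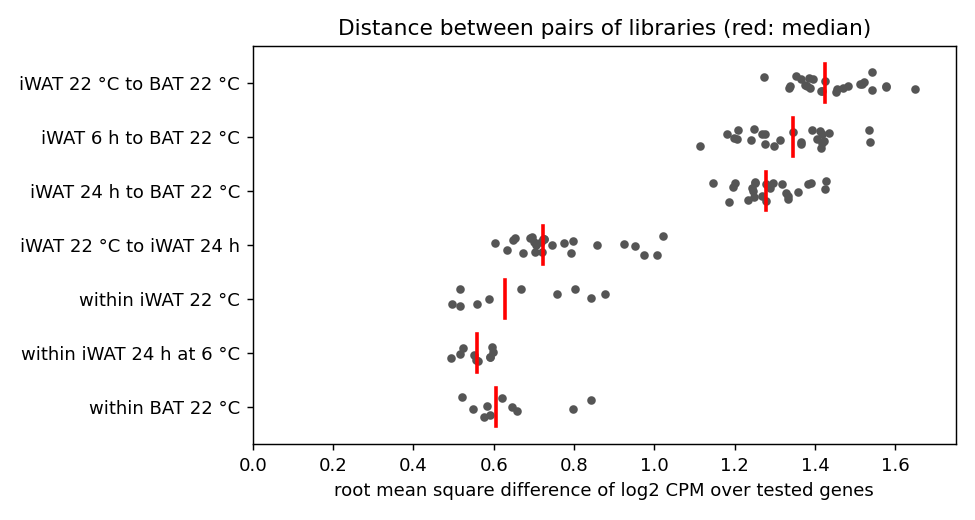
Root mean square difference of log2 CPM (horizontal axis) for each pair of libraries, 1 point per pair, with the median of each kind of pair as a red line. Pairs of iWAT after 24 h with BAT lie between 1.15 and 1.43, those of iWAT at 22 °C with BAT between 1.27 and 1.65, and no pair within a group exceeds 0.877.

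The heat-making genes closed much of the gap without reaching BAT. Of 24 thermogenic adipocyte genes tested, 17 were lower in the cold white fat than in BAT and 2 higher, with a median of -1.28, against -3.29 in iWAT at 22 °C. Their summed level was 4780 to 7920 CPM after cold, 18200 to 22800 in BAT and 846 to 2410 in iWAT at 22 °C, with no overlap between any of the groups. On the log2(FPKM + 1) scale the list's median was -0.84, with 15 members lower. In whole tissue, fewer thermogenic cells and less RNA per cell cannot be told apart.

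Ucp1 itself (ENSMUSG00000031710) stood at 3560, 2240, 2290, 3030 and 3910 CPM in the 5 cold-exposed white fat libraries, in order of replicate. BAT had 12600, 13000, 11900, 9650 and 12100, and iWAT at 22 °C had 28.8, 138, 653, 523 and 9.01. Every cold library was above every unexposed iWAT library and below every BAT library, and the unexposed white fat varied most in relation to its level. The mean was 3007 ± 744 CPM (SD, n = 5) against 11860 ± 1310 in BAT, a difference of -1.98 log2 (95% interval -3.33 to -0.63; edgeR adjusted p = 0.012). It had been -5.46 before cold. The call was lost on FPKM, where limma's adjusted p was 0.0542 with a pseudocount of 1 and 0.0557 with 0.1, and where the difference was -1.58. With BAT replicate 2 as the only BAT library the difference stayed at -2.1 and, with 1 library in that group, did not pass (edgeR adjusted p = 0.128).

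Ppargc1a (ENSMUSG00000029167), the coactivator that drives mitochondrial biogenesis, was the induced member that came within 1 log2 unit of BAT. Its libraries read 104, 101, 65.8, 151 and 152 CPM in cold iWAT, 122, 115, 107, 83.2 and 185 in BAT and 14.9, 13.3, 22.8, 21.7 and 12.1 in iWAT at 22 °C. The first 2 groups overlapped and the third lay below both. The difference from BAT was -0.09 (interval -0.82 to 0.63), where at 22 °C it had been -2.85. Its relative Ppargc1b, at -1.24, and the estrogen-related receptors Esrra and Esrrg, with which both work, at -0.94 and -1.08, were still lower.

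Dio2, which makes active thyroid hormone inside the cell, rose by 3.38 in the cold white fat, the fatty acid elongase Elovl3 by 4.09 and the fatty acid carrier Fabp3 by 5.10. The 3 missed the threshold against BAT. For Dio2 the cold libraries held 249, 191, 144, 223 and 224 CPM, BAT 538, 638, 435, 363 and 547, and unexposed iWAT 3.45, 7.59, 35.4, 51.1 and 1.38. The cold and BAT ranges did not overlap, and the difference was -1.29 (interval -2.44 to -0.14; edgeR adjusted p = 0.052). Elovl3 differed by -1.32 (-2.58 to -0.06; edgeR adjusted p = 0.069) and Fabp3 by -1.01 (-2.50 to 0.48; edgeR adjusted p = 0.24). In a fit of the 10 libraries alone, which leaves out the spread of unexposed iWAT, edgeR's adjusted p was 2.41e-05, 0.00235 and 0.0015 for the 3 genes, all lower in the white fat. Dio2 also passed with DESeq2 (adjusted p = 0.0262).

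Other members were farther below BAT. Acot11, an acyl-CoA thioesterase that is cold-induced in brown fat, read 56.9, 57, 30.9, 54.3 and 55.1 CPM in cold iWAT and 766, 570, 734, 581 and 710 in BAT, a difference of -3.73 (interval -4.82 to -2.63). The fatty acid transporter and acyl-CoA synthetase Slc27a2 differed by -2.83, the pantothenate kinase Pank1, first step of coenzyme A synthesis, by -2.47, and the mitochondrial protein gene Letmd1 by -2.50. Cidea, a lipid droplet protein of brown and beige fat, had 630, 501, 466, 438 and 635 CPM against 2230, 2150, 2200, 2360 and 2050 in BAT and 66.9, 128, 257, 495 and 74.3 in iWAT at 22 °C. Its difference was -2.04 (edgeR adjusted p = 0.00011), with no overlap between cold iWAT and BAT. Cpt1b, Otop1 and Kcnk3 were lower, at -1.62, -1.82 and -1.27.

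Prdm16 and Ebf2, transcription factors of brown adipocyte identity, kept nearly the same difference from BAT. Prdm16 averaged 18.6 ± 3.69, 18.7 ± 2.48 and 36.5 ± 6.31 CPM (SD, n = 5 each) in iWAT at 22 °C, cold iWAT and BAT. The difference from BAT was -0.97 log2 before cold and -0.96 after it, and its own change was 0.01 (interval -0.33 to 0.35). For Ebf2 the differences from BAT were -0.72 and -0.62. The call for Ebf2 was lost on both FPKM scales.

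Irf4 and Adrb3 were the 2 thermogenic members called higher than in BAT. Irf4, a transcription factor that works with PGC-1α, had 14.7, 372, 95.1, 176 and 170 CPM in cold iWAT, 79.3, 36.5, 26, 22.1 and 25.1 in BAT and 19.5, 18.6, 16.3, 19.5 and 12.1 in iWAT at 22 °C. Replicate 1 of the cold white fat stayed at the unexposed level and the other 4 were above every BAT library. The difference was 2.13 (interval 1.06 to 3.21; edgeR adjusted p = 0.001), and 2.19 with BAT replicate 2 alone, where it did not pass with 1 BAT library (edgeR adjusted p = 0.112). Adrb3, the main β-adrenergic receptor of mouse adipocytes, fell in the cold white fat (-0.55) and was still 0.50 above BAT, with no overlap. With BAT replicate 2 alone its difference was 0.591 (edgeR adjusted p = 0.0747).

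**Figure D2:**
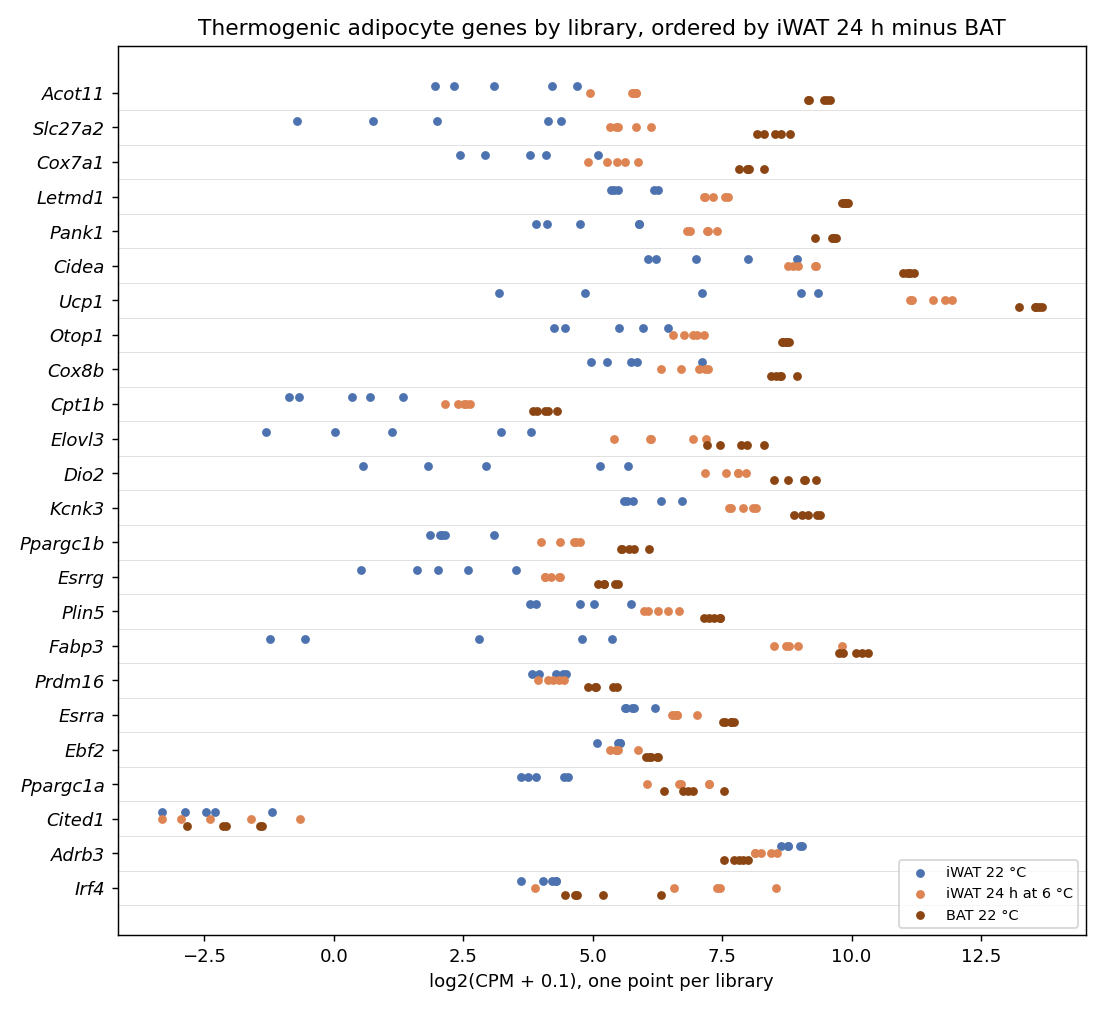
Thermogenic adipocyte genes, ordered from most below to most above BAT: log2(CPM + 0.1) of each library of iWAT at 22 °C (blue), iWAT after 24 h at 6 °C (orange) and BAT at 22 °C (brown), n = 5 each. Cold libraries lie between the other groups for most genes, meet BAT at Ppargc1a, and pass it at Irf4 in 4 of 5 libraries.

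Respiratory and fuel-burning genes were lower in nearly all members. All 13 mitochondrially encoded messages were lower, with a median of -1.64 after -1.95 at 22 °C, and all 17 enzymes of the tricarboxylic acid cycle, with a median of -1.52 after -2.18. Of 47 nuclear-encoded respiratory chain genes, 44 were lower and none higher (median -1.04, before cold -1.75). On log2(FPKM + 1) the 3 medians were -1.20, -1.09 and -0.63. The polyA selection reads mitochondrial messages through their short tails, so their share is that of captured RNA.

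Within the cycle, Suclg1 was the farthest from BAT at -2.43 (184 to 248 CPM against 1160 to 1250), and Ogdh was at -2.07. Within the list of 47 respiratory chain genes the core subunits of complex III and I, Uqcrc1 at -1.90 and Ndufv1 at -1.64, were farthest, while Cox8a, at -0.25, and Ndufa5, at -0.38, lay within 1 log2 unit. Tissue-specific subunit isoforms, kept in a separate list, differed in size of effect. The muscle- and brown-fat-type isoforms Cox7a1 and Cox8b differed by -2.57 and -1.71, and their general counterparts Cox7a2 and Cox8a read -0.74 and -0.25. Cox7a1 had 44.4, 49.1, 29.8, 38.6 and 58.3 CPM in cold iWAT and 315, 255, 226, 253 and 258 in BAT, with no overlap.

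Fatty acid oxidation followed: 20 of 25 genes were lower (median -1.43, before cold -1.75). Acaa2, the last enzyme of the mitochondrial spiral, differed by -2.42, and the trifunctional protein subunit Hadha by -1.93. Cpt1a, the liver-type gate for fatty acids into mitochondria, was higher, at 0.77. The muscle-type gate Cpt1b went the other way.

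Genes of glucose use were also lower. Of 23 genes of glucose uptake and glycolysis, 20 were lower and 2 higher, with a median of -1.34 after -1.90 at 22 °C. Pfkl, the liver-type phosphofructokinase, differed by -2.27 and the lactate dehydrogenase subunit Ldhb by -1.84. The 2 farthest members, Eno3 at -3.77 and Slc16a3 at -2.90, and Pfkm at -2.39 are also expressed in skeletal muscle, whose RNA was present in BAT at levels given with the muscle markers. With BAT replicate 2 alone, which held the least muscle RNA, 16 members were lower, the median was -1.04 and Slc16a3 turned to 0.398, while Eno3, at -0.692, no longer passed (edgeR adjusted p = 0.726). Entry of pyruvate was lower for 10 of 13 genes, among them Pdha1 at -1.61, while pyruvate carboxylase, Pcx, was higher at 0.70.

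Of 25 genes of biogenesis, mitochondrial transcription and translation, 20 were lower, and the median was -0.51 after -1.34 before cold. Wholly within 1 log2 unit lay 15 of them, near the 58% of all tested genes. On log2(FPKM + 1), 11 were lower and 2 higher, with a median of -0.08. Tufm, the mitochondrial elongation factor, was farthest at -1.56, and Mrpl12 and Tomm20 were within 1 log2 unit at -0.35 and 0.02. For fusion, fission and cristae genes the count was 12 of 15 lower, led by Opa1 at -1.21 and Immt at -1.11. Branched-chain amino acid breakdown had 14 of 21 lower and 13 within 1 log2 unit, again near the 58% of all tested genes. Its first step went the other way (Bcat1 2.45, Bcat2 1.00). On log2(FPKM + 1) this list had 9 lower, 6 higher and a median of -0.09.

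Proteasome genes were close to BAT. All 24 genes of the proteasome list, Nfe2l1 included, lay within 1 log2 unit, where 58% of all tested genes did, with a median of 0.04, against -0.34 at 22 °C. NFE2L1 drives proteasome genes and is active in brown fat in the cold. On log2(FPKM + 1), 21 of them were higher and the median was 0.46 instead. Of 19 cholesterol synthesis and uptake genes 16 lay within 1 log2 unit, with a median of -0.31 that turned to 0.06 on both FPKM scales. Clock genes had 12 of 19 within 1 log2 unit, near the share of all genes, and 8 were lower, with Bhlhe40 (-2.35) and Ciart (-1.85) farthest. The clock list's median, -0.18, turned to 0.17 and 0.2 on FPKM.

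Among 20 genes common to all adipocytes 12 lay within 1 log2 unit, near the 58% of all tested genes, 11 were higher and 4 lower, with a median of 0.36. The secreted protease adipsin, Cfd, was highest over BAT at 3.23, with 7200, 7120, 4850, 3660 and 4520 CPM against 678, 467, 585, 847 and 341, and adiponectin, Adipoq, differed by 1.44. Perilipin 1, Plin1, was 0.52 and the fatty acid carrier Fabp4 0.88 above BAT. Pparg, the nuclear receptor that makes adipocytes, was lower at -0.87 (171 to 187 CPM against 287 to 365), as was Gpd1, which makes glycerol 3-phosphate, at -1.91.

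Fat making split by enzyme. Scd1, the desaturase, had 30700, 35600, 25600, 35300 and 30600 CPM in cold iWAT and 30700, 27700, 30100, 24500 and 32200 in BAT, and its difference of 0.12 (interval -0.35 to 0.60) lay within 1 log2 unit, as it had at 22 °C (-0.16). Its regulator Srebf1 was also within, at 0.07. Fatty acid synthase, Fasn, was lower at -1.44 (4870, 8490, 2810, 6520 and 3360 CPM against 17600, 10200, 15700, 13900 and 13300), and so were both acetyl-CoA carboxylases, Acaca at -1.60 and Acacb at -1.66, and the elongase Elovl6 at -2.32. In all, 12 of 22 lipogenic genes were lower and 2 higher (median -0.63), and Fads1, at 1.71, was the highest.

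Fatty acid uptake and triglyceride synthesis had 8 of 24 genes higher and 9 lower (33.3% and 37.5%, beside 28.8% and 28.5% of all tested genes). The median of -0.07 turned to 0.04 with upper-quartile factors and to 0.25 and 0.33 on FPKM. Transporters exchanged places: Slc27a1 was 2.37 above BAT (729 to 1250 CPM against 132 to 204) where Slc27a2 was below it. Acsl5, an acyl-CoA synthetase, was lower at -3.45 (44.1 to 75.1 CPM against 534 to 838), and Acsl1, its abundant relative, was within 1 log2 unit at 0.19. Of 19 lipolysis and droplet genes, 12 lay within 1 log2 unit, again near the 58% of all tested genes, adipose triglyceride lipase, Pnpla2, at -0.20 among them. The lipolysis-restraining receptor Hcar2 (3.18) and Plin4 (2.08) were higher, and the lipase inhibitor G0s2 (-1.63) lower.

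**Figure D3:**
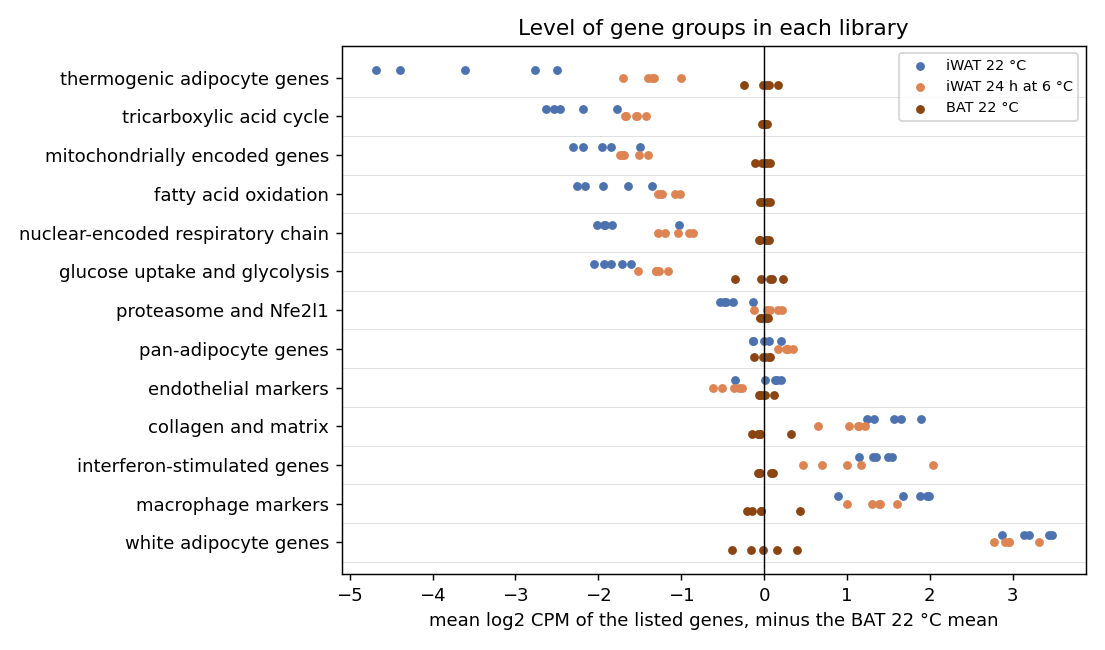
Mean log2 CPM of each gene group in each library, as the difference from the BAT mean (vertical line at 0), for iWAT at 22 °C (blue), iWAT after 24 h at 6 °C (orange) and BAT (brown), n = 5 each. Cold libraries of the thermogenic genes lie between the other groups, those of the proteasome genes lie around the BAT level, and those of the white adipocyte genes far above it.

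Of 18 brown lineage genes 12 were lower and 3 higher (median -0.75, before cold -1.16). Zic1 (ENSMUSG00000032368), a zinc finger factor and classic marker of interscapular brown fat, had 24.8, 26.8, 11.4, 10 and 19.7 CPM in BAT and no count in any cold iWAT library, which makes it at least 1258-fold lower (3 counts over the 5 libraries as the floor). Its neighbour Zic4 had 0.788 to 3.7 CPM in BAT and 1 count in all in cold iWAT, and at this depth no finer value can be given. Lhx8, also used as a brown marker, differed by -0.54 (interval -1.30 to 0.22), with overlapping libraries. Other patterning factors lower in the white fat were Tbx5 at -2.83 and Eya1 at -3.79. Higher ones were Shox2 at 3.78 (26 to 32.7 CPM against 0.457 to 4.35), Emx2 at 3.65, Irx1 at 3.07 and Tbx1 at 4.07. Tbx15 had 15.6, 15, 18, 12.8 and 13.5 CPM in cold iWAT and 9.18, 4.43, 9.9, 17.2 and 27.6 in BAT, where replicate 2 was lowest and replicate 5 highest. Its difference of 0.13 was within 1 log2 unit, but it was 1.77 with BAT replicate 2 alone (edgeR adjusted p = 0.00888) and 0.578 on log2(FPKM + 1), where it also passed as higher.

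Hox genes, whose order along the chromosome follows the body axis, split by paralogue number. Of 26 tested, 13 were higher and 6 lower (50% and 23.1%, beside 28.8% and 28.5% of all tested genes). Hoxc10 (ENSMUSG00000022484) had 22.4, 19.6, 21.4, 17.9 and 19.4 CPM in cold iWAT and no count in any BAT library, at least 889-fold higher by the same floor of 3 counts. For Hoxa10 the white fat held 15.5, 9.95, 14.9, 11.6 and 10.6 CPM and BAT a single count in all. Hoxc9 was higher by 7.07 log2, Hoxa9 by 4.34, Hoxc8 by 3.14 and Hoxb8 by 2.21. BAT was not uniform here: its Hoxc8 libraries read 6.99, 6.67, 13.9, 14.9 and 3.37 CPM and Hoxa9 0.366, 0.274, 1.92, 1.41 and 0.51.

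Some anterior members went the other way. Hoxa5 (ENSMUSG00000038253) had 5.62, 6.36, 5.97, 3.88 and 6.19 CPM in cold iWAT, 5.03, 6.23, 5.61, 6.01 and 5.57 in iWAT at 22 °C and 33, 31.3, 37.6, 30.7 and 29.9 in BAT. Its difference was -2.54 after cold (interval -2.78 to -2.29) and -2.52 before it, and its own change in the cold was -0.02 (-0.26 to 0.22). Hoxa4 was lower at -2.30, Hoxc4 at -2.23 and Hoxc5 at -1.69. Hoxb4 and Hoxb3, at 0.03 and 0.18, lay within 1 log2 unit, so number alone did not sort the B cluster. The authors' counting may not separate overlapping transcripts of a Hox cluster.

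**Figure D4:**
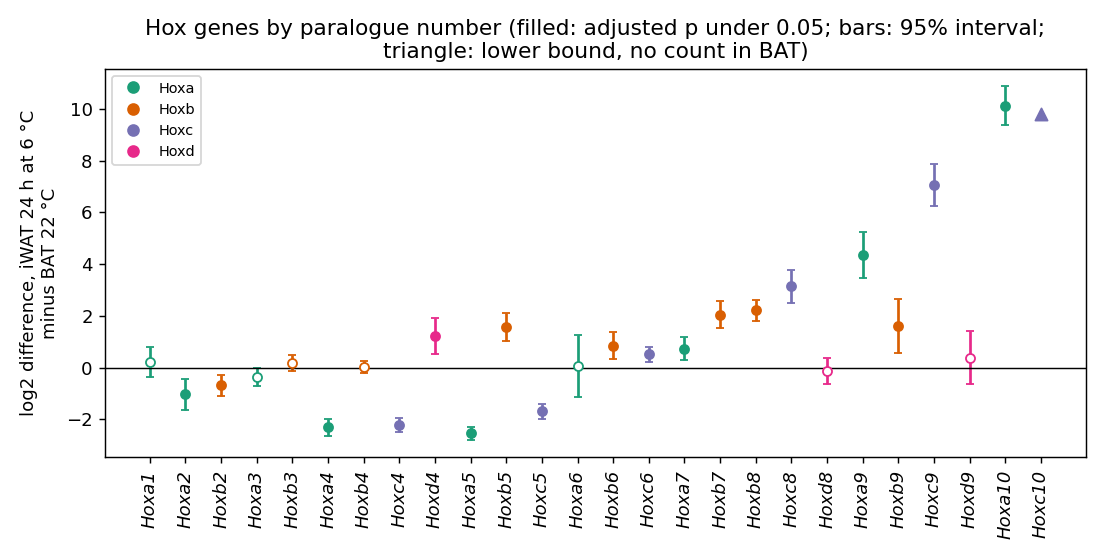
Log2 difference of each tested Hox gene between iWAT after 24 h at 6 °C and BAT at 22 °C, ordered by paralogue number and coloured by cluster; bars are 95% intervals, filled points passed an adjusted p of 0.05, and the triangle is the lower bound for Hoxc10, which had no count in BAT. Groups 4 and 5 hold the lowest values and groups 9 and 10 the highest.

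White-type genes kept their distance. Of 17 tested, 15 were higher than in BAT and none lower, with a median of 2.98 after cold and 3.07 before it. Their summed level was 3290 to 4590 CPM in cold iWAT and 293 to 532 in BAT. Leptin, Lep (ENSMUSG00000059201), the satiety hormone of white fat, had 213, 152, 142, 178 and 385 CPM in cold iWAT, 471, 415, 451, 259 and 665 in iWAT at 22 °C and 18.3, 14.5, 24.6, 29.5 and 22.6 in BAT. It fell by 1.08 log2 in the cold and was still 3.29 above BAT (interval 2.39 to 4.18; edgeR adjusted p = 3.2e-07), with no overlap. Resistin, Retn, changed by 0.43 in the cold, which did not pass the test, and had 1180, 1320, 950, 973 and 975 CPM in cold iWAT against 70.5, 45.2, 68.5, 85.2 and 36 in BAT, a difference of 4.14. Sncg, at 4.52, and the imprinted genes Nnat, at 4.10, and Mest, at 2.98, were likewise higher, as was the serine-synthesis enzyme Psat1 at 3.39.

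Genes once listed as beige markers were mostly higher in white fat than in BAT whatever the temperature. Of 12 tested 8 were higher, with a median of 2.14 after cold and 1.89 before it. Tmem26 (4.33) and Tbx1 were near the lower limit of counting, at 0.34 to 0.917 and 0.676 to 2.62 CPM in cold iWAT. Cited1, the member most tied to induction, was at 0 to 0.539 CPM in cold iWAT and 0.0402 to 0.284 in BAT, too low to compare.

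Of 23 genes of the adrenergic signal 14 were lower and 7 higher (60.9% and 30.4%, beside 28.5% and 28.8% of all tested genes). Their median was -0.49. On log2(FPKM + 1) it was 9 lower and 8 higher, with a median of -0.07. Gnas, which encodes the stimulatory G protein, had 734, 640, 610, 670 and 762 CPM in cold iWAT and 3230, 3410, 3240, 3060 and 3360 in BAT, -2.25 log2 apart. Among adenylyl cyclases Adcy3 was lower at -1.75 and had risen by 2.17 in the cold, while Adcy5 was higher by 3.56. The receptor Adrb1 was lower at -2.25.

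Early and hormone-response genes showed both directions. Of 18 immediate early and cAMP-responsive genes, 7 were lower and 3 higher, Fosb among the latter. These are 38.9% and 16.7%, beside 28.5% and 28.8% of all tested genes. The nuclear receptor Nr4a1, induced by cAMP, was lower at -3.43 (2.3 to 14.1 CPM against 78.9 to 137), and its relative Nr4a3 rose by 2.73 and then differed from BAT by 0.52 (interval -0.31 to 1.35), which did not pass the test. Fosb was 3.75 higher on average, but 1 library carried it: cold iWAT read 0.0577, 0.35, 0.112, 0.34 and 8.46 CPM, and without replicate 5 the difference was 0.676 (edgeR adjusted p = 0.555). The glucocorticoid-induced genes Fkbp5 (46.4, 61.2, 71.9, 74.1 and 59.7 CPM against 6.75, 7.45, 8.32, 12.1 and 12.4) and Zbtb16 (39.1, 72.3, 90.2, 122 and 99.4 against 4.35, 9.32, 8.86, 9.52 and 10.3) were higher by 2.73 and 3.32, with no overlap. Of the whole list of 15 glucocorticoid-responsive genes, these 2 included, 4 were higher and 5 lower, with Mt2 at -1.66. These shares, 26.7% and 33.3%, are near the 28.8% and 28.5% of all tested genes. Of 20 heat shock and folding genes 8 were lower and 5 higher (40% and 25%, beside 28.5% and 28.8% of all tested genes). The lower ones were led by the near-identical Hspa1b (-3.52) and Hspa1a (-3.28), whose reads cannot be assigned with certainty. The higher ones were led by Pdia4 (1.25).

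Of 23 factors secreted by brown or white fat 13 were higher and 6 lower, Pm20d1 at -2.71 among the latter. These are 56.5% and 26.1%, beside 28.8% and 28.5% of all tested genes. Of 22 integrated stress response genes 11 were higher and 3 lower, with a median of 0.78, against -0.30 before cold. Their regulators Atf4 and Ddit3 lay within 1 log2 unit at -0.05 and -0.02. Phgdh and Psat1, both of serine synthesis, were higher at 3.13 and 3.39 and had been so at 22 °C (3.65 and 3.41). Fgf21, a hormone of energy stress, had 2.91, 0.513, 0.537, 5.17 and 8.67 CPM in cold iWAT, 1.5, 0.365, 0.473, 0.884 and 0.204 in BAT and 0.15, 0.235, 0.305, 0.0567 and 0.0203 in iWAT at 22 °C. It was 2.38 above BAT (edgeR adjusted p = 0.0091) and the groups overlapped. Without cold replicate 5, the highest, the difference was 1.74 (edgeR adjusted p = 0.0536). Gdf15 went with it, at 1.64, 1.17, 0.358, 3.49 and 6.44 CPM against 0.488, 0.0914, 0.0945, 0.281 and 0.034, a difference of 3.73, again with overlap.

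A further rule took genes called lower than BAT at 22 °C and called higher than BAT by at least 1 log2 unit after cold. It gave 3 genes: Fgf21, Acot5 and Kcnh6. Acot5, a peroxisomal acyl-CoA thioesterase, had 4.1, 2.4, 2.77, 3.31 and 3.66 CPM in cold iWAT, 0.447, 0.0914, 0.756, 0.603 and 0 in BAT and 0.244, 0.0523, 0.122, 0.255 and 0 in iWAT at 22 °C. Kcnh6, a potassium channel, had 2.28, 1.19, 2.15, 2.97 and 5.04, 0.488, 1.14, 0.284, 0.0804 and 0.17 and no count in any unexposed iWAT library. The 5 libraries together held 651 and 544 counts of the 2 genes in cold iWAT and 52 and 53 in BAT. The lowest cold library of Kcnh6 barely cleared the highest BAT library, replicate 2, and with that library alone the difference was 1.26 (edgeR adjusted p = 0.397).

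How much of the gap closed can be followed gene by gene. At 22 °C, 577 genes were at least 2 log2 units below BAT in iWAT. Among those with a mean of at least 5 CPM in BAT, 225 had a called rise in the cold. Without that floor, 513 of the 577 were still called lower by 1 log2 unit or more, and 3 had an interval within 1 log2 unit. On the other side, 1093 genes had been at least 2 log2 units above BAT. Among those with a mean of at least 5 CPM in iWAT at 22 °C, 141 had a called fall. Of all 1093, 986 were still called higher by 1 or more, and 1 came within. The floors differ from the full sets, so 225 and 141 are not shares of 577 and 1093. Unexposed iWAT enters both the choice of genes and the change, and cold iWAT both the change and the remaining gap. These counts are therefore a description.

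Among the risers nearest to BAT, Got1, the cytosolic aspartate aminotransferase, went from 6.05, 8.37, 6.18, 7.8 and 3.97 CPM to 45.9, 33.3, 39.9, 53 and 66.5 beside 59.3, 47.2, 63.1, 56.9 and 97.2 in BAT, leaving -0.44 (interval -1.05 to 0.17). The kinase Sgk2 went from 0 to 0.482 CPM to 15.3, 9.47, 9.49, 14.9 and 17.7, with 16.4, 29.8, 17.2, 12.1 and 15.7 in BAT, leaving -0.45. The mitochondrial carrier Slc25a34 and the thioesterase Acot2 were left at -0.54 and -0.42. The groups overlapped for Got1 and Sgk2, and their intervals reach beyond -1, so equality with BAT is not shown. With BAT replicate 2 as the only BAT library, Got1 differed by 0.03 and Sgk2 by -1.15.

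Risers left farthest from BAT included Lgr6, a receptor for R-spondins, which reached 7.27, 4.03, 3.71, 6.53 and 11 CPM from 0.0376, 0.235, 0.975, 0.113 and 0.102, with 180, 192, 182, 144 and 208 in BAT, so that a rise of 4.42 left -4.80. Kng2, a kininogen, rose by 4.78 to 8.25 to 20.8 CPM and still differed by -3.52 from BAT (117 to 178 CPM). Ptgds, which makes prostaglandin D2, and Cabcoco1 were left at -4.14 and -4.51.

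On the falling side the alarmin Il33 came down from 10.2, 9.08, 5.57, 14.4 and 4.43 CPM to 1.15, 0.723, 2.13, 2.02 and 2.61, beside 1.54, 1.83, 2.05, 2.01 and 2.11 in BAT, leaving -0.15 (interval -0.90 to 0.60). Sfrp2, a stromal Wnt modulator, went from 30.9, 26.5, 23.4, 36.7 and 12.9 to 2.31, 2.19, 8.64, 7.8 and 10.3, with 1.95, 2.28, 3.72, 8.28 and 2.48 in BAT, and fibronectin, Fn1, from 369, 260, 218, 271 and 79.2 to 28.1, 30.1, 191, 91.4 and 98.8, with 36.4, 40.7, 55.4, 79.9 and 51.7 in BAT. In both, replicates 1 and 2 of the cold white fat were the lowest, and the differences of 0.74 and 0.74 did not pass the test. Left highest over BAT after a fall were Prtn3 at 4.19 and Plac8 at 3.96.

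The largest positive differences, by rank alone, were Hoxc10, Hoxa10, Alb, 5 Mup genes, Hoxc9, Spp1, Slc13a4 and Ubd. Alb had 27.5, 28.5, 28.9, 36.4 and 26.3 CPM in cold iWAT, 23.1, 10.4, 31.2, 19.5 and 19.8 in iWAT at 22 °C and 0.163, 0.0457, 0.0315, 0.0804 and 0.034 in BAT. Alb and the Mup genes encode albumin and the major urinary proteins, known chiefly from liver. Mup copies are nearly identical, so a value for 1 of them, such as Mup17 at 251, 247, 72.2, 64.5 and 37 CPM against 2.97, 1.23, 0.41, 2.13 and 1.33, is uncertain. Replicates 1 and 2 of the cold white fat were the highest for Mup17.

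The largest negative differences were mostly of genes known from skeletal muscle, and muscle markers varied widely between single BAT libraries. The 15 tested muscle markers summed to 41.9 to 63.6 CPM in cold iWAT. In BAT they summed to 2630, 383, 2540, 6740 and 10900 CPM over replicates 1 to 5, and in iWAT at 22 °C to 53.9 to 62.2 in 4 libraries and 4310 in replicate 2. The creatine kinase Ckm, for example, had 225, 24.9, 218, 595 and 914 CPM in BAT, 0.26, 0, 0, 0 and 0.135 in cold iWAT, and 0.0751, 399, 0, 0 and 0 in iWAT at 22 °C. All 15 were called lower in cold iWAT. Ckmt2, the mitochondrial creatine kinase discussed for energy-wasting creatine cycling, read 20.1, 3.38, 21.2, 47.7 and 125 CPM in BAT, with the lowest library in replicate 2 and the highest in replicate 5, as for Ckm. The part of muscle RNA in these differences was not tested. Ckb, the creatine kinase of adipocytes, was within 1 log2 unit at -0.12 (33.8, 28.8, 24, 22.5 and 35.3 CPM against 30.1, 42.3, 21, 28.2 and 34.8).

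**Figure D5:**
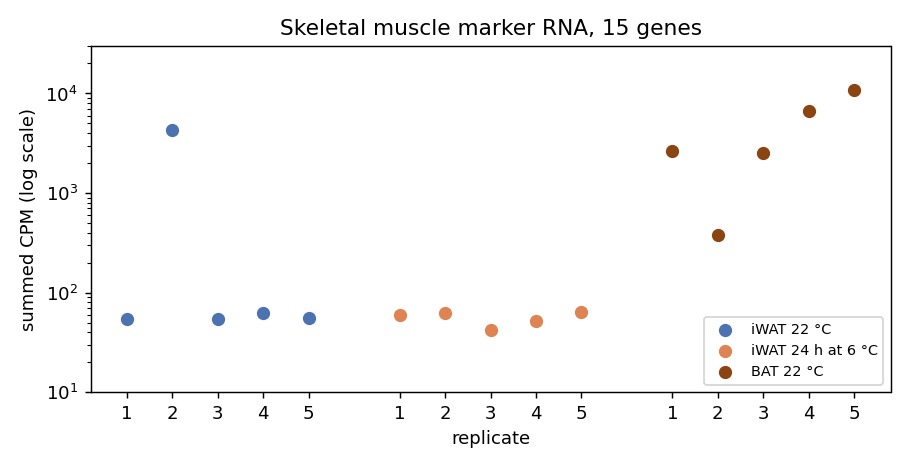
Summed CPM of 15 skeletal muscle markers in each library (log scale), by replicate, for iWAT at 22 °C, iWAT after 24 h at 6 °C and BAT at 22 °C. Cold iWAT lies between 41.9 and 63.6, BAT between 383 and 10900, and 1 unexposed iWAT library at 4310.

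With BAT replicate 2 as the only BAT library, 4199 genes were called instead of 8064, and 4117 of them were among the 8064. Of all 8064, 7983 kept their sign. Of the genes named here that no longer passed against this single library, several stayed near their size or grew: Fgf21 was at 3.28, Dpp4 at 2.87, Mest at 2.76, Bcat2 at 0.931, Esrrg at -0.987, Cox7a2 at -0.632 and Nfe2l1 at -0.351. Others were smaller there: Hspa1a was at -1.61, Irx1 at 1.59, Tmem26 at 3.44, Fosb at 2.53, Eya1 at -2.87, Fasn at -0.953, Cpt1a at 0.53, Ckm at -8.4 and Ckmt2 at -7.17. Another list keeps only genes of steady level in BAT (the highest library under 3 times the lowest, a limit set after values were seen). By construction it leaves out genes that vary between BAT libraries as widely as the muscle markers. It opens with Zic1 and goes on with the carbonic anhydrase Car14, at 0.836, 0.629, 0.94, 0.136 and 0.566 CPM in cold iWAT and 59.7, 61.8, 40.9, 40.6 and 54 in BAT (-6.37 log2). Lgr6, Tpd52l1 (-4.86), Cabcoco1, Mmd2 (-4.33), the mitochondrial malic enzyme Me3 (1.97 to 3.06 CPM against 46.1 to 55.1, -4.30) and Hpcal4 (-4.26) follow. The calcium-binding protein S100b, known both from Schwann cells and as a brown adipocyte product that draws sympathetic nerves, had 3.4, 6.5, 5.86, 4.83 and 8.21 CPM in cold iWAT, 4.34, 4.08, 5.32, 6.38 and 4.84 in iWAT at 22 °C and 78.8, 76, 71.6, 81.1 and 83.3 in BAT, a difference of -3.76 with a change in the cold of 0.21.

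The other cells of the pads differed as well. All 16 macrophage markers were higher in cold iWAT, with a median of 1.45 and summed levels of 431 to 678 CPM against 173 to 286 in BAT. Collagen and matrix genes had 18 of 25 higher and none lower (median 1.10, before cold 1.74), with Col15a1 at 2.37 and Col4a2, of basement membranes, within 1 log2 unit at 0.03. Among progenitor and fibroblast markers 10 of 20 were higher and 4 lower (50% and 20%, beside 28.8% and 28.5% of all tested genes). Dpp4, of the earliest inguinal progenitors, had 7.1, 5.76, 54.5, 24.1 and 20 CPM in cold iWAT and 2.72, 3.11, 5.36, 8.24 and 5.38 in BAT. Its lowest cold libraries were replicates 1 and 2, as for Fn1.

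Interferon-stimulated genes were higher for 11 of 16, with Irf7 at 2.29 and a median of 1.21. With BAT replicate 2 alone 3 passed. Endothelial markers were lower for 9 of 15, among them Cdh5 at -1.03 and Kdr at -1.01, with summed levels of 585 to 733 CPM against 945 to 1230. Mural markers had 6 of 11 lower, Rgs5 at -1.52 among them, but 4 on log2(FPKM + 1), with 3 higher. Of 10 Schwann cell and nerve markers 6 were higher, the myelin gene Prx at 2.75 among them, and 1 lower, S100b. Lymphocyte markers summed to 12.5 to 30.9 CPM in cold iWAT and 8.59 to 12 in BAT. Of 19 tested, 4 were higher (21.1%) and 1 lower (5.26%), under the 28.8% and 28.5% of all tested genes. Few epithelial and mesothelial markers passed the filter (3 of 13 and 2 of 8). Proliferation genes, led by Plk1 at 2.54, were higher for 8 of 20, at low levels. The part of these cells in the differences of shared genes was not tested.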

How the data were processed

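The deposited table holds raw read counts per gene and FPKM (a unit scaled by gene length and library total) for 30 libraries; the authors made both, and the submitters' processing notes name HISAT2, HTSeq and GRCm39 without versions. Whether counting used strand is not given in the sources used here, so antisense and overlapping genes are uncertain. Counts of all 30 libraries were fitted with edgeR 4.0.16 (R 4.3.3): filterByExpr with a minimum count of 10, TMM factors, 1 mean per group, the quasi-likelihood test and Benjamini-Hochberg adjustment at 0.05. Of 21652 genes 14089 were tested. Intervals are 95%, from the fitted log2 difference and its standard error. Limma 3.58.1 on log2(FPKM + 1) and DESeq2 1.42.0 were alternatives. The script was tested on simulated data.

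Gene lists, members and the choice of comparison were made with earlier results of these data known. Genes were named by rule: the 12 largest called differences in each direction with no overlap and at least 5 CPM in the higher group, up to 5 called members of a list in each direction and up to 3 within 1 log2 unit, a set of 46 chosen genes, the 8 nearest to and farthest from BAT among genes that closed a gap, and those that passed BAT. A selection of these, made with their values in view, is printed. Adcy3, Atf4, Cited1, Cox7a2, Ddit3, Esrra, Hoxb4, Hoxb8, Mest, Ndufa5 and Srebf1 lie outside the rule and were chosen after their values were seen. Promoter sequences came from RefSeq on GRCm38.p6, another build than that of the counts, and were matched by symbol. Replicate libraries differed by more than sampling noise (chi-square per degree of freedom 14.1 to 133). A few genes of the lists are not reported here by name.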

Additional observations from a re-analysis of the deposited data

Results flagged for a closer look

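In 142 sets of 5 libraries (list means, chosen genes and library values in cold iWAT and BAT), 6 held a library whose gap to its nearest neighbour exceeded 0.71 of the range, where chance gives about 1 in 20. The values are mean log2 CPM over a list. Cold iWAT replicate 1 had 5.53 for glucocorticoid-responsive genes, with the others at 5.82 to 5.89, and cold iWAT replicate 5 had -0.11 for the 3 epithelial and mammary markers, with the others at 0.4 to 0.52. BAT replicate 4 stood at 6.34 for collagen and matrix genes (others 5.87 to 5.96) and at 3.17 for macrophage markers (others 2.52 to 2.69). BAT replicate 5 had 7.45 for mitochondrial fusion, fission and cristae genes (others 7.34 to 7.37). BAT replicate 2 had 6.06 for thyroid hormone, insulin and natriuretic signalling genes (others 5.91 to 5.94).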

How the results depend on the processing

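Genes called between cold iWAT and BAT (8064) numbered 8209 with DESeq2, 8054 with RLE factors, 8338 with upper-quartile factors, 8085 with no filter, 7686 with a filter of 1 CPM and 8273 with only the 10 libraries. On log2(FPKM + 1), 7902 were higher, 1814 lower and 1378 at 1 log2 unit or more, and 5609 were called within iWAT; with a pseudocount of 0.1 it was 7999 higher and 1825 lower. With BAT replicate 2 as the only BAT library, chosen after seeing the data and assumed to vary like the other groups, 4199 were called (2051 higher, 2148 lower), and 6115 between iWAT at 22 °C and BAT. Leaving out each replicate in turn gave 7586 to 7947 calls, 3829 to 3993 higher, 3710 to 3961 lower, 3037 to 3287 at 1 log2 unit or more, 7951 to 8120 within 1, 8876 to 9367 between iWAT at 22 °C and BAT, and 2938 to 4111 within iWAT. With the replicate number as a block, in the 10 libraries, 7939 were called. The numbers do not pair the libraries: deviations of same-numbered libraries correlated at -0.006 to 0.068, and 1 of 5 cold libraries matched its own number best. Slc16a3 turned to 0.398 with BAT replicate 2 alone and Nfe2l1 to 0.107 and 0.108 on FPKM; the cause was not tested. List medians that changed sign on log2(FPKM + 1) were antioxidant genes (0.24), heat shock genes (0.12) and immediate early genes (0.10), beside those given in the report. Lipolysis genes (-0.04) and thyroid hormone, insulin and natriuretic signalling genes (-0.06) did so with BAT replicate 2 alone, and glucocorticoid-responsive genes (-0.04) with the filter of 1 CPM. Of the 127 called genes named here, 104 kept their direction and call in all alternatives run. Zic4 and Hoxa10, each with 1 count in all 5 libraries of a group, allow no finer ratio at this depth.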
